A study of Mus musculus with 15 samples.

Results

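The cytosolic ribosomal protein genes are the genes whose products, with ribosomal RNA, make up the ribosomes of the cytoplasm. They were chosen by name alone, as the genes whose symbols follow the Rps, Rpl, Rplp and Rpsa series, and 81 of the 24421 genes measured met that rule in all 3 count tables. Of these, 32 belong to the small subunit (Rps genes and Rpsa) and 49 to the large subunit (Rpl and Rplp genes). RNA was sequenced from microglia, the brain's own macrophages, sorted as cells of intermediate CD45 and CD11b staining from the forebrain of male mice aged 8 to 24 weeks. Stroke was modelled by occluding the middle cerebral artery for 60 minutes, and sham mice had the surgery without the occlusion. C57BL/6J wild-type mice gave 1 sham library and 1 library each for days 1, 6, 14 and 28 after stroke. Transgenic Igf1-Egfp mice, whose EGFP marks cells that use the Igf1 reporter, gave 1 EGFP-negative and 1 EGFP-positive library at each of days 6 and 14. At 6 days after stroke, 3 libraries from Yy1flox/flox mice (floxed controls) were set against 3 from Cx3cr1-CreER;Yy1flox/flox mice (Yy1-deleted). The floxed controls carried no Cre, and Cx3cr1 is used by other mononuclear phagocytes as well as by microglia. The labels do not say whether mice were pooled.

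Each ribosome holds 1 copy of nearly every one of these proteins, so cells make them in matched amounts. Their promoters and messages share features that allow joint control: many messages start with a run of pyrimidines (C or T), through which TOR kinase signalling sets their translation. Levels of these messages are known to rise when cells grow or divide and to differ between blood cell types, and several genes have paralogs restricted to muscle or testis. The genes have many processed pseudogenes, so reads from them are hard to place. Yy1 encodes the zinc finger factor YY1, whose site is often found near the start of genes for ribosomal and mitochondrial proteins.

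The libraries held 10.5 to 52.6 M counts (M, 1e6), with 9886 to 17321 genes counted. Among the wild-type libraries, day 14 and day 28 stood apart with 11823 and 9886 genes counted, against 16009 to 17321 in sham, day 1 and day 6. The 12 microglia markers were counted in every library, and none was at 0. Their summed level was 37350 CPM (counts per 1e6 counts, after scaling by the trimmed mean of M-values, TMM) in sham and 9312 to 19320 CPM in the 4 stroke libraries of wild-type mice. Markers of other cells moved as well: the 10 monocyte markers summed to 81.4 CPM in sham and 1675 to 2520 CPM after stroke, and none was at 0 in any of these 5 libraries. Fn1 carried much of these sums, and the other 9 gave 36.3, 577, 314, 425 and 1259 CPM from sham to day 28. On day 14 Ccr2 (0.925 against 7.55 CPM), Ly6c2 and Chil3 were below sham, while Ly6c1 and Ace, also known from endothelium, were at 266 and 119 CPM. The 12 endothelial and mural markers summed to 263 CPM in sham, 725 CPM (day 1), 3376 CPM (day 6), 6348 CPM (day 14, 1 at 0) and 31.5 CPM (day 28, 1 at 0). The 10 neutrophil markers summed to 704, 2421, 852, 410 and 2999 CPM from sham to day 28, with 5 at 0 on day 14 and 1 at 0 on day 28. Csf3r made up 654 of the 704 CPM in sham, and without it the other 9 summed to 50.3, 2232, 391, 11.1 and 2383 CPM. In bulk libraries such as these, fewer cells of a type and less RNA per cell cannot be told apart.

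The share of all counts that fell on the 81 genes was lowest in sham among the wild-type libraries. It was 0.721% in sham, and days 1, 6, 14 and 28 gave 1.27%, 1.29%, 1.38% and 1.79%. Every stroke library thus lay above sham, and day 28 above the rest. Among reporter cells of day 6 the share was 1.87% without and 1.21% with EGFP, whereas the day 14 values were 0.705% and 0.874%. The EGFP-negative library was therefore the higher on day 6 and the lower on day 14. Floxed controls 1 to 3 gave 0.976%, 0.989% and 1.08%, and Yy1-deleted libraries 1 to 3 gave 1.03%, 1.01% and 1.08%. The 95% exact binomial (Clopper-Pearson) interval of the sham share ran from 0.719% to 0.723%, and such intervals cover counting error only. They take each count as independent, although 76.5% of sham values from 1 to 20 were even. The interval can thus be too narrow even for counting error. For comparison, the 77 mitochondrial ribosomal protein genes (Mrps and Mrpl), which serve the separate ribosomes of mitochondria, took 0.0825% of counts in sham and 0.0883% to 0.115% in the 4 wild-type stroke libraries.

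**Figure D1:**
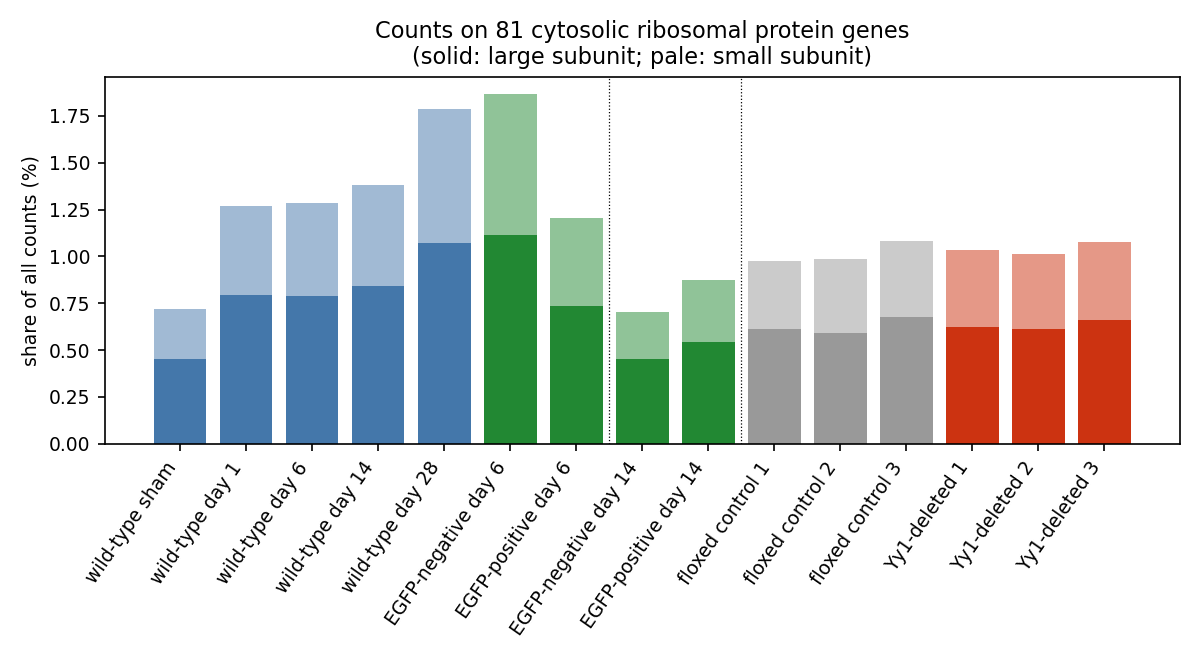
Share of all counts (%, y axis) on the 81 cytosolic ribosomal protein genes in each of 15 libraries (x axis), solid for the large and pale for the small subunit; dotted lines part the 3 separately made count tables. The wild-type bars go from 0.721% in sham to 1.79% on day 28, and the 6 bars of the Yy1 table lie between 0.976% and 1.08%.

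Members differed widely in level. A level of 20 CPM or more was reached in every library by 63 members and in at least 1 library by 74. Per kilobase of exon, the highest median levels over the 15 libraries belonged to Rplp1 with 475 CPM per kb (range 114 to 923) and Rps15 with 210 (59.9 to 473). Rplp1 is a protein of the acidic stalk that recruits elongation factors, and Rps15 is a core subunit of the small subunit's head. Exon length counts every annotated exon, so a gene with long alternative exons appears lower on this scale.

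The other end of the scale held both tissue-restricted paralogs and core subunits. The 7 members under 20 CPM everywhere were Rpl10l, Rpl39l, Rpl3l, Rpl26, Rpl30, Rpl34 and Rps27. Of these, Rpl10l and Rpl39l are paralogs known from testis and Rpl3l is a paralog known from muscle. Rpl10l and Rpl26 had 0 counts in all 15 libraries. Rpl26 and Rpl30 are core large-subunit proteins that every cell is expected to make. Rpl30 reached at most 0.251 CPM. Rpl34 lay between 0 and 10.8 CPM, and Rps27 between 0 and 11.0 CPM. Sequence shared with other genes can keep reads from being counted: of all 50-base stretches in the longest coding transcript, 79.2% in Rpl30, 63.1% in Rps27 and 47.4% in Rpl26 also occurred in transcripts of other genes, but only 6.93% in Rpl34. Over the whole set, the 35 members with at least 50% shared sequence had a median level of 73.9 CPM per kb. The 45 members under 50% had one of 52.6 CPM per kb. Whether shared sequence sets the low counts of Rpl26, Rpl30, Rpl34 and Rps27 was not tested. The levels of these 4 genes are read here as uncertain, not as absence of the message.

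Shared sequence was common in the whole set. Over the 80 members with such a transcript, a median of 46.0% of 50-base stretches also occurred elsewhere (range 0% to 95.1%), in a median of 10 other genes. Rpl7a shared stretches with 123 other genes, the most of any member. The members with at least 50% shared sequence and those below it had nearly equal median ratios in each comparison: 1.39 and 1.28 on the log2 scale on day 28, and -0.56 and -0.55 between the EGFP states of day 6.

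In wild-type mice most cytosolic ribosomal protein genes were counted at higher levels in every stroke library than in sham. Over the 73 members with at least 20 CPM in 1 of these libraries, the median level was 83.1 CPM in sham and 152, 156, 154 and 201 CPM on the 4 days in turn. The lowest of the 5 levels was that of sham for 62 of the 73, that of day 14 for 7 and that of day 28 for 4. The highest was that of day 28 for 48, day 14 for 15, day 6 for 6 and day 1 for 4. With 1 library per time point there is no spread between mice and no test, and the 4 comparisons share the sham library. Ratios are log2 of CPM (TMM-scaled) after adding 1 CPM, a scale on which changes of low genes appear too small.

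On day 1, all 73 members considered (20 CPM or more in either library) had a ratio above 0, with a median of 0.76 against -0.00 over all genes. A ratio of at least 1 was reached by 16 members upward (21.9%) and by 0 downward, against 12.5% and 10.6% of all 7203 genes considered. On day 6, all 72 members considered were above 0, with a median of 0.84 against -0.09 over all genes. Of these, 16 (22.2%) passed a ratio of 1 upward and 0 downward, against 10.6% and 2.9% of all genes. The members also lay close together: the middle 50% spanned 0.30 log2 units on day 6, against 0.64 for all genes. Small-subunit and large-subunit members had medians of 0.70 and 0.76 on day 1 and of 0.85 and 0.82 on day 6.

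The later libraries were less uniform. On day 14, 66 of 71 members were above 0 and the median was 0.79 against -0.03 over all genes. A ratio of 1 or more was reached by 25 members (35.2%) upward and by 0 downward, against 22.6% and 20.2% of all genes. Rps28 and Rps27l were under 20 CPM in both libraries of this comparison and not considered, with ratios of -0.74 and -1.57. The same held for Rps4l at -1.80, Rpl34 at -1.97 and Rps27 at 1.19. Rps27l (9.43 CPM in sham) was considered on days 1 and 28 through its level on those days, with ratios of 1.30 and 2.24. On day 28, 69 of 73 members were above 0, with a median of 1.32 against 0.15 over all genes. There 55 members (75.3%) passed a ratio of 1 upward and 1, Rps12, passed it downward, against 27% and 24% of all genes. The middle 50% of members spanned 0.86 log2 units on day 14 and 0.82 on day 28.

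Short genes also stood higher on day 28. Over other genes no longer than 2687 bases of exon, the length that 75% of members do not exceed, the median ratio was 0.85 on day 28, against 0.05 over longer genes. The same values were 0.17 and -0.03 on day 1, 0.05 and -0.11 on day 6, and 0.31 and -0.07 on day 14. The members' medians were 0.76, 0.84, 0.79 and 1.32 on the 4 days in turn. Members and other genes were not matched by length or level, and the part of gene length in the members' ratios was not tested. The day 28 library further held 486 CPM of dendritic cell markers against 27.4 CPM in sham (4 of 10 at 0 on day 28), and its monocyte and neutrophil sums are given above. The part of these cells in the day 28 ratios was not tested.

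**Figure D2:**
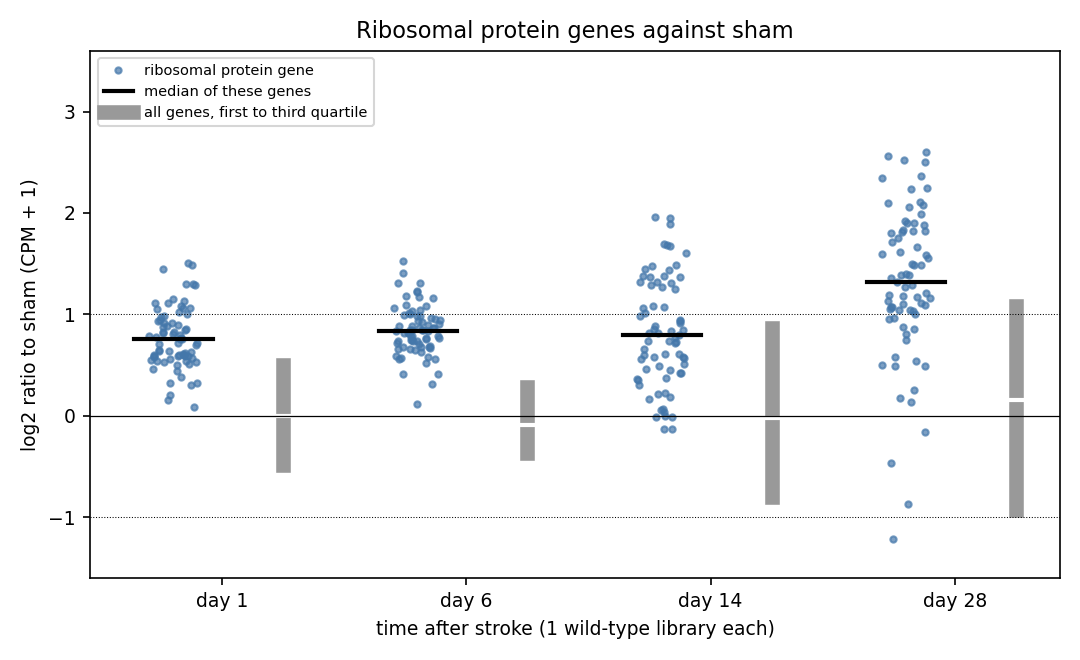
Log2 ratio to sham (y axis, TMM-scaled CPM plus 1 CPM) on each day after stroke (x axis, 1 library each); points are ribosomal protein genes with 20 CPM or more in either library, black lines their medians, and grey bars run from the lower to the upper quartile of all genes with a white mark at their median. The medians lie at 0.76, 0.84, 0.79 and 1.32, and the points spread more widely on days 14 and 28.

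The small-subunit proteins with the highest ratios included Rpsa, also known as the laminin receptor, Rps2, of the messenger RNA entry side, and Rps19, mutated in Diamond-Blackfan anaemia. Rpsa (chromosome 9, 120127689 to 120132369, GRCm38) had 107, 307, 202, 281 and 121 CPM from sham to day 28. Its ratio of 1.51 was the highest of the members on day 1, while on day 28 it was close to sham at 0.18. Rps2 (chromosome 17, 24718116 to 24721929) had 82.5, 233, 166, 268 and 233 CPM in the same order, with ratios of 1.48, 1.00, 1.69 and 1.49. Rps19 (chromosome 7, 24884371 to 24889806) had 30.7, 85.5, 72.5, 121 and 182 CPM, and its ratios of 1.45, 1.21, 1.95 and 2.53 put it among the 3 highest members on days 1, 14 and 28. All 4 stroke libraries were above sham for each of these 3 genes.

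Other members peaked late. Rps28, a short protein near the messenger RNA exit of the small subunit, had 18.1, 25.9, 34.1, 10.4 and 114 CPM from sham to day 28, so that day 14 lay below sham and day 28 had the highest ratio of all members, 2.60. Being under 20 CPM in sham, Rps28 was considered only on days when the stroke library was higher. Rpl39, a short protein of the exit tunnel encoded on chromosome X, had 29.2, 44.0, 62.2, 116 and 83.4 CPM, with its ratio of 1.96 on day 14 the highest of that day. Rpl36 came after Rps19 there with 1.89, from 24.0 CPM in sham to 91.3 CPM on day 14. Rpl41, the smallest protein of the large subunit, led on day 6 with 1.52, from 63.3 CPM in sham to 184 CPM. Rpl35 and Rps26 came next on day 6 with 1.41 and 1.31.

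Some members went against the rest on day 28. Rps12 (chromosome 10, 23785183 to 23787275) had 128, 186, 198, 150 and 54.3 CPM from sham to day 28, a ratio of -1.22. Rpl27 had 23.3, 40.3, 40.4, 32.5 and 12.3 CPM, and its day 28 ratio was -0.87. Rps26, another gene of Diamond-Blackfan anaemia, had 96.2, 185, 240, 161 and 69.2 CPM, with a day 28 ratio of -0.47. For these 3 genes the days 1, 6 and 14 were above sham and day 28 was below it. On day 14, 5 of the members considered were below sham: Rps15a and Rps4x, both at -0.13, and Rps29, Rpl37a and Rps16, each at -0.01. Among the lowest were Rps29 with 0.09 on day 1 and, on day 6, Rplp1 with 0.11, Rpl10 with 0.31 and Rpl7a with 0.41.

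**Figure D3:**
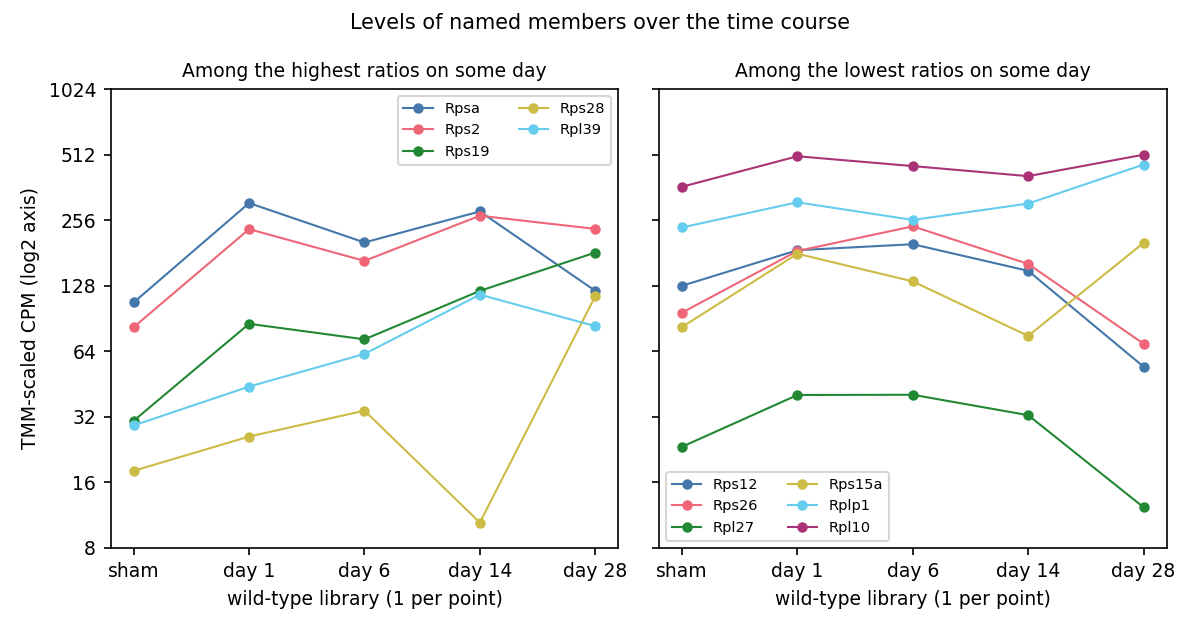
TMM-scaled CPM (y axis, log2 axis) of 11 named members in the 5 wild-type libraries (x axis, 1 library per point); lines join the points of 1 gene. Left, Rps19 and Rps28 are highest on day 28 with 182 and 114 CPM; right, Rps12, Rps26 and Rpl27 fall below their sham level on day 28.

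The stalk proteins and members known for functions beyond the ribosome are given next. The stalk base Rplp0 had 153, 321, 276, 228 and 324 CPM from sham to day 28, and its partner Rplp2 had 61.0, 104, 97.0, 91.3 and 186 CPM. Rplp1, the third stalk protein, moved less, from 237 CPM in sham to 309, 256, 305 and 461 CPM. Rpl5 and Rpl11, which form a particle with 5S ribosomal RNA that can bind Mdm2, had ratios of 0.63 and 0.59 on day 1, 0.68 and 0.75 on day 6, 0.73 and 1.29 on day 14, and 1.04 and 0.49 on day 28. Rps6, the classic substrate of S6 kinase, had ratios of 0.69, 0.74, 0.94 and 1.14. Rps27a, made as a fusion with ubiquitin, had ratios of 0.85, 0.65, 1.43 and 0.80. Rps3, which lines the messenger RNA entry, had 0.64, 0.74, 0.88 and 0.25. Rpl13a, known for a role in silencing inflammatory messages, had 0.56, 0.82, 1.69 and 1.19. Rpl10, a late-joining subunit, had 0.46, 0.31, 0.16 and 0.49. Rpl38, known from skeletal patterning in mice, had 0.89, 0.85, 1.48 and 1.03. Rpl22 was near sham on day 14 with 0.04 and high on day 28 with 2.06. Paralogs varied more. Rps27l, a target of p53, was low: its levels were 9.43, 24.6, 15.4, 2.50 and 48.4 CPM, so that day 14 lay below sham, and its day 28 ratio was 2.24. The other paralog with measurable counts, Rps4l, had 11.2, 11.1, 9.85, 2.50 and 0 CPM.

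Other genes of translation and of ribosome assembly are set beside the members here. Of the 8 ribosomal proteins whose symbols fall outside the Rps and Rpl pattern and that were considered, the median ratio was 0.63, 0.67, 0.52 and 1.54 on days 1, 6, 14 and 28. Fau, made as a fusion with a ubiquitin-like protein, had a ratio of 1.52 on day 14. The list called translation factors here has 21 genes and also holds Hnrnpa1 and Nap1l1, which are not translation factors. Its medians were 0.61, 0.53, 0.26 and 0.87. Past a ratio of 1 were 3, 0, 3 and 9 upward and 0, 0, 1 (Hnrnpa1 at -1.99) and 0 downward. Nap1l1 was among those upward on day 1 with 1.26 and on day 28 with 1.29. Of all genes, 12.5%, 10.6%, 22.6% and 27% passed it upward on these days, so the counts of days 1, 6 and 14 are near or under those of all genes. The elongation factor subunit Eef1g went from 69.2 CPM in sham to 255 CPM on day 1. Ribosome biogenesis genes, whose products process ribosomal RNA, had a median of 1.00 on day 1 with 18 of 35 considered past a ratio of 1 upward and 0 downward. They included Rrp12 with 1.98, the nucleolar GTPase Gnl3 with 1.70 and Nhp2 with 1.68. Rrp12 (11.4 CPM in sham, 48.0 CPM on day 1) and Nhp2 (8.42 and 29.2 CPM) met the 20 CPM minimum only through day 1. Others of the 18 did too, and such entries can raise the count and the median. Over all 43 genes of the list, with no minimum, the summed level was 2010 CPM in sham. It was 3989, 2023, 1947 and 2716 CPM on the 4 days in turn. The median of those considered was -0.16 on day 6 with 0 of 27 past a ratio of 1 either way. It was -0.07 on day 14 with 6 of 32 upward and 8 downward, and 0.24 on day 28 with 8 of 29 upward and 9 downward. The RNA polymerase I genes had medians of 0.53, -0.09, -0.18 and 0.48, of 9, 7, 8 and 8 considered. Past a ratio of 1 were 1, 0, 2 and 2 upward and 0, 0, 1 and 3 downward. Over all 15, with no minimum, their summed level was 485 CPM in sham. It was 677, 448, 389 (2 at 0) and 483 CPM (3 at 0) on the 4 days in turn. The mitochondrial ribosomal proteins had medians of 0.24, -0.18, 0.76 and 1.48 on days 1, 6, 14 and 28, of 15, 10, 17 and 24 considered. Past a ratio of 1 were 2, 0, 6 and 16 upward and 0, 0, 2 and 2 downward, beside the shares of all genes given above. Some, such as Mrpl30 (6.95 CPM in sham, 68.2 CPM on day 28), met the 20 CPM minimum only through the stroke library. Over all 77, with no minimum, their summed level was 814 CPM in sham, 846 CPM on day 14 (17 at 0) and 1105 CPM on day 28 (23 at 0). Of the snoRNA host genes, whose introns hold guides for ribosomal RNA modification, 5 of 6 considered passed a ratio of 1 upward on day 28, against 27% of all genes, and 0 of 5, 4 and 4 did so on days 1, 6 and 14, with Snhg8 past it downward on day 14 at -1.18. Those of day 28 included Snhg1, which had 46.7 CPM in sham against 185 CPM then. Snhg3 (3.02 CPM in sham, 26.4 CPM on day 28) and Snhg12 (17.8 and 46.3 CPM) met the 20 CPM minimum only through day 28. Snhg3 had ratios of 1.47 on day 1 and 1.37 on day 14 but was not considered there. Over all 8 snoRNA host genes, with no minimum, the summed level was 317.7 CPM in sham. It was 464.2, 249.5, 245.5 and 732.2 CPM on the 4 days in turn.

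The reporter asks whether cells that express Igf1, a growth factor made by microglia after injury, differ from those that do not. On day 6 nearly all members were lower in EGFP-positive than in EGFP-negative cells. Of 73 members considered, 71 had a ratio of positive to negative below 0, and the median was -0.55 against -0.04 over all genes. A ratio of -1 or less was reached by 10 members (13.7%) and 0 reached 1, against 11.9% and 7.53% of all genes, so the number past the size rule is near that of all genes while the shift is small and shared. Their summed level was 20438 CPM without EGFP and 13795 CPM with it, 0.675-fold. The lowest ratios were those of Rps18 at -1.31, from 160 to 64.2 CPM, Rpl39 at -1.27, from 176 to 72.1 CPM, and Rps15a at -1.22, from 270 to 115 CPM. Rps27a went from 383 to 171 CPM and Rpl38 from 150 to 69.4 CPM. Rps2 lay above 0 with 0.23 (201 and 236 CPM), as did Rps27l with 0.04 (30.1 and 30.9 CPM).

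The EGFP-negative library of day 6 also carried more counts of neutrophil, monocyte and dendritic cell markers. Its neutrophil markers summed to 12060 CPM against 440 CPM in EGFP-positive cells, with 0 and 1 of 10 at 0. Monocyte markers summed to 5258 and 1572 CPM with none at 0, and dendritic cell markers to 372 and 9.58 CPM with 0 and 5 of 10 at 0. Border-associated macrophage markers went the other way, with 115 CPM without and 340 CPM with EGFP, 1 of 8 at 0 in each. T cell markers were mixed. They summed to 11.2 and 35.9 CPM, with 1 and 7 of 10 at 0. Cd28 (3.01 CPM without and 25.5 CPM with EGFP) and Cd4 (2.93 and 10.3 CPM) carried the higher sum. Cd3d, Cd3e, Cd3g, Cd8b1, Lck and Cd2 were at 0.0993 to 1.49 CPM without EGFP and at 0 with it. Microglia markers summed to 10920 and 10010 CPM. The part of these cells in the members' difference was not tested. Set beside wild-type day 6 cells of the same table, 72 of 73 members were higher in EGFP-negative cells (median 0.77), and 48 were higher in EGFP-positive cells (median 0.21). Both states lay above sham, EGFP-positive cells for 72 members and EGFP-negative cells for 73, with medians of 1.00 and 1.65. The translation factors had a median ratio of -0.16 between the states and the ribosome biogenesis genes one of -0.01. Of the TOR and Myc regulators, 2 of 20 passed a ratio of 1 downward: Mxd1 with -3.54 and Ddit4 with -2.36, a share near the 11.9% of all genes. Mxd1 encodes a partner and antagonist in the Myc network, and Ddit4 an inhibitor of TOR signalling. Among 4 snoRNA host genes considered, 2 passed it downward, Snhg5 with -1.72 and Snhg1 with -1.57. Snhg5 (31.7 CPM without and 8.93 CPM with EGFP), Snhg1 (38.9 and 12.4 CPM) and Ddit4 (36.5 and 6.30 CPM) met the 20 CPM minimum only through the EGFP-negative library. Such entries can raise the count downward. Over all 8 snoRNA host genes, with no minimum, the summed level was 293 CPM without and 150 CPM with EGFP.

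The day 14 pair had the opposite direction. Of 71 members considered, 65 had a ratio above 0, with a median of 0.42 against 0.03 over all genes. Only 2 members passed a ratio of 1 upward and 1 downward, against 11.2% and 10.9% of all genes, so most ratios were small. The summed level was 6797 CPM without and 9067 CPM with EGFP. Rpsa had 115 CPM without and 239 CPM with EGFP, a ratio of 1.05. Rps2 had 169 and 319 CPM, 0.91. The lowest ratios were those of the paralog Rps4l at -1.21, from 37.4 to 15.6 CPM, and of Rpl22 and Rps13, both -0.34. In the EGFP-positive library endothelial and mural markers summed to 436 CPM against 23.8 CPM, with 3 and 10 of 12 at 0, and monocyte markers to 607 against 94.1 CPM, with 1 and 7 of 10 at 0. Neutrophil markers summed to 2317 and 1241 CPM, with 1 and 8 of 10 at 0, and without Csf3r to 1094 and 0.157 CPM. The part of these in the members' ratios was not tested. Microglia markers were at 49660 and 51850 CPM. The day 14 reporter libraries were sequenced on another instrument and form their own table, so their levels cannot be set against those of day 6.

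Of the 70 members considered on both days, 64 had a ratio below 0 at day 6 and above 0 at day 14. Rpl10a, Rpl22, Rpl7a and Rps13 were lower on both days, Rps2 was higher on both, and Rps27l was higher on day 6 and lower on day 14. With 1 library per state and day the difference between the days was not tested.

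**Figure D4:**
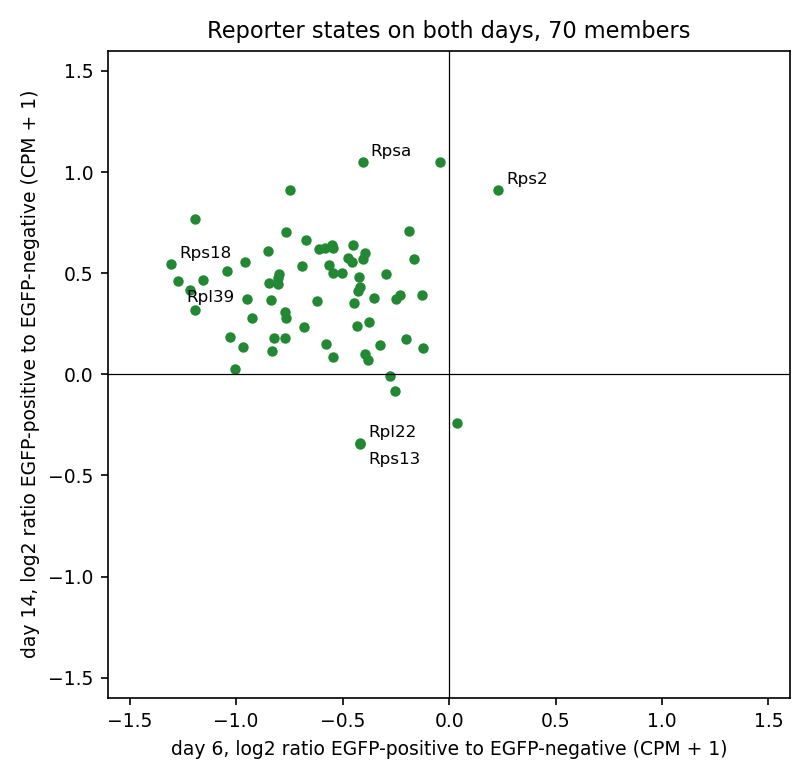
Log2 ratio of EGFP-positive to EGFP-negative cells (TMM-scaled CPM plus 1 CPM) on day 6 (x axis) and day 14 (y axis) for the 70 members considered on both days, 1 point per gene. Most points, 64 of 70, lie at the upper left, below 0 for day 6 and above 0 for day 14, and Rps2 alone lies at the upper right.

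The Yy1 comparison, the only replicated one, asks how loss of the factor alters day 6 cells. Yy1 itself had 76.1, 50.9 and 57.9 CPM in the controls, replicates 1 to 3, against 32.5, 28.9 and 38.8 CPM after deletion. All 3 deleted libraries were below all 3 controls, with a log2 fold change of -0.88 ± 0.28 (SE) and an adjusted p of 0.128 (edgeR quasi-likelihood test). The homeostatic marker P2ry12 had a log2 fold change of 1.21 (adjusted p = 6.3e-06, edgeR), and Igf1 one of -0.84 (adjusted p = 0.0923, edgeR). All 12 microglia markers were called higher in Yy1-deleted libraries, summing to 25450 to 27550 CPM against 15810 to 17020 CPM. Monocyte markers summed to 660 to 764 CPM against 931 to 1355 CPM, with 0 to 2 of 10 at 0 in each library and F13a1 (-2.16) and Chil3 (-1.29) called lower. Neutrophil markers summed to 1215 to 1521 CPM against 812 to 890 CPM, with Csf3r (0.89) called higher. The list's median was -0.01 with 4 of 9 tested above 0, and without Csf3r the sums overlapped, at 246 to 385 against 306 to 344 CPM. These shifts in markers stand beside every value of this comparison, and their part in it was not tested.

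Ribosomal protein genes were not called changed after Yy1 deletion. Of the 76 members tested, 0 were called higher and 0 lower at an adjusted p of 0.05 (edgeR), against 1.55% and 1.05% of all 12387 genes tested. The lowest adjusted p of a member was 0.112. At an unadjusted p under 0.05 there were 10 members higher and 0 lower (13.2% of members), against 14.1% of all genes. That count was 3 to 11 when 1 library was left out: 3 without floxed control 2, 5 without floxed control 1 or Yy1-deleted 3, and 7 to 11 without 1 of the others. It was 5 with total counts. The members' median log2 fold change was 0.14, the middle 50% ran from -0.02 to 0.29, and 55 members were above 0 (72.4%, against 48.7% of all genes). Scaling by total counts moved the members' median to 0.031, with 43 above 0, and that of all genes from -0.02 to -0.12. All 3 deleted libraries lay above all 3 controls for 13 members and below them for 4, against 9.54% and 11.5% of all genes. DESeq2 called 1 member, Rpl18, and the edgeR test with no filter on low counts called 1 other. The median standard error of a member was 0.20 log2 units. The share of counts on the 81 genes was 1.02% ± 0.0578 (SD, n = 3) in controls against 1.04% ± 0.0325 (SD, n = 3) after deletion. That difference of 0.025 percentage points had p = 0.6 in a two-sided exact permutation test, in which 3 against 3 cannot go below 0.1. The labels call the 3 libraries of a group biological replicates but do not say whether mice were pooled, so these p-values measure the spread between libraries.

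Members among those with the lowest p are given with every library's level. Rpl18, a large-subunit protein (chromosome 7, 45715457 to 45720836), had 62.4, 68.3 and 62.6 CPM in the 3 controls, against 95.6, 106 and 103 CPM in the 3 deleted libraries. Its log2 fold change was 0.66 ± 0.20 (SE; adjusted p = 0.112, edgeR), and the groups did not overlap. Rps6 had 233, 240 and 275 CPM against 330, 367 and 283 CPM, with 0.39 ± 0.15. Rpl7a had 188, 137 and 170 CPM against 196, 229 and 243 CPM, with 0.43 ± 0.17. For each of these 3 genes every deleted library was above every control, and no adjusted p was under 0.05.

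Members with the opposite sign were fewer. Rpl5 had 320, 291 and 267 CPM in controls, against 242, 232 and 246 CPM after deletion, with a log2 fold change of -0.29 (95% interval -0.59 to 0.02). Its partner Rpl11 had 53.1, 48.6 and 51.5 against 80.9, 57.4 and 56.0 CPM, with 0.34 (-0.19 to 0.88). The pair thus had opposite signs, and neither interval excluded 0. Rpsa was at 0.27 (-0.08 to 0.61), Rplp0 at 0.20 (-0.16 to 0.56), Rps3 at 0.28 (-0.09 to 0.64), Rps19 at -0.00 (-0.48 to 0.48) and Rpl10 at -0.03 (-0.34 to 0.27). Rpl41 was at 0.03 (-0.39 to 0.45), so a change beyond 0.45 in either direction lies outside its interval. Yy1-deleted library 2 was low for some members: Rps27a had 128, 48.7 and 118 CPM in the 3 deleted libraries and Rps12 had 184, 72.0 and 151 CPM, against 116 to 132 and 132 to 168 CPM in controls.

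**Figure D5:**
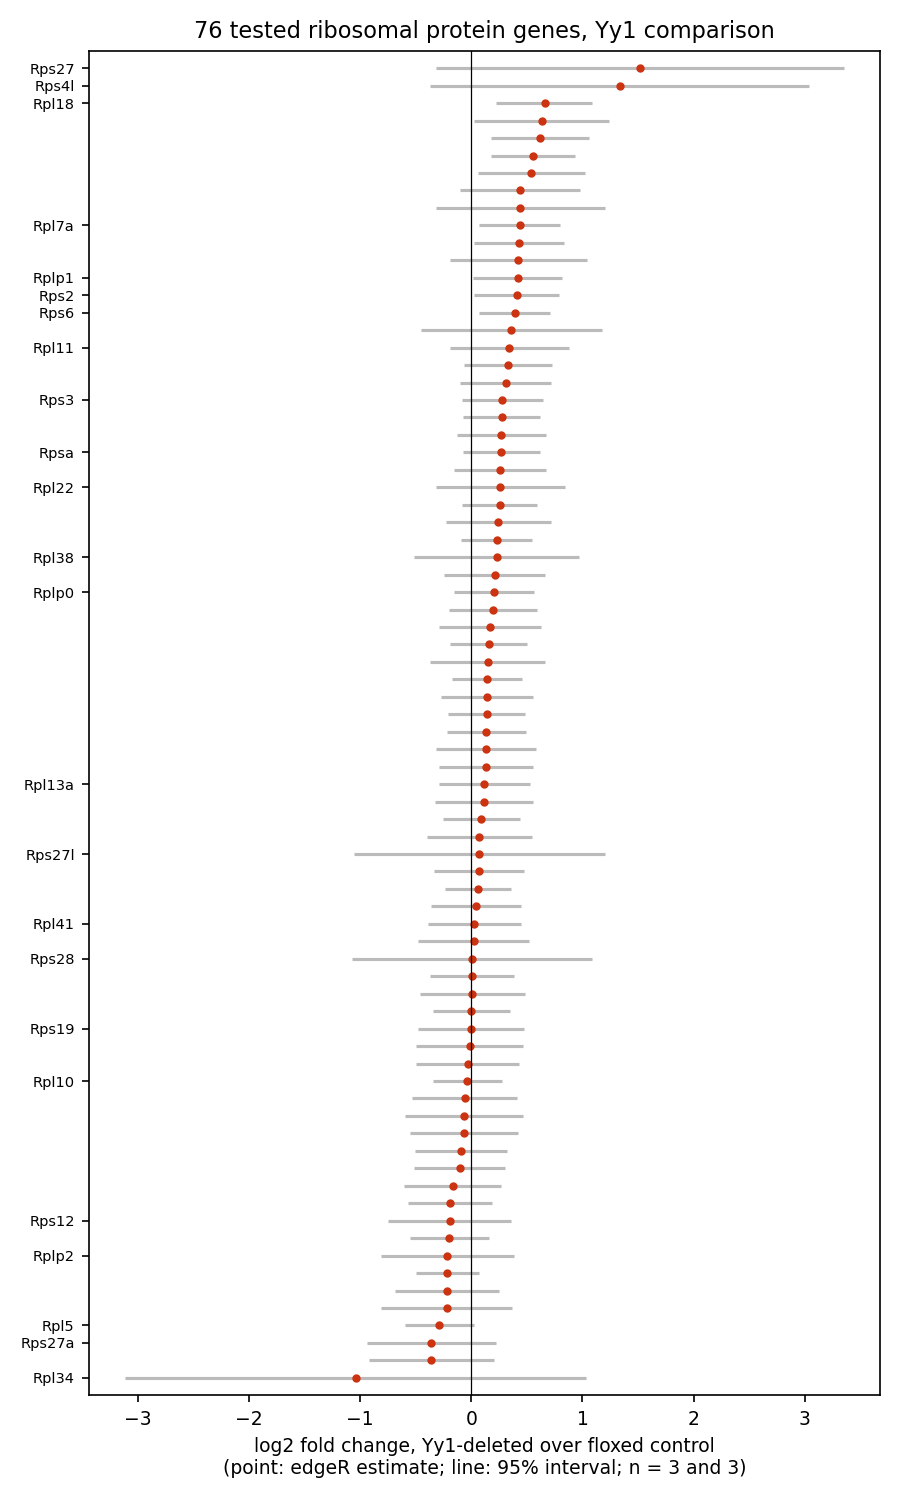
Log2 fold change of Yy1-deleted over floxed control (x axis) for each of the 76 members tested (y axis, symbols given for some members named in the text), with the edgeR estimate as a point and its 95% interval as a line, 3 libraries per group. All points but Rps27, Rps4l and Rpl34 lie between -0.36 and 0.66, and none of these genes passed the adjusted threshold.

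Related genes were mostly uncalled in this comparison too. None of the 8 ribosomal proteins outside the name pattern, 21 translation factors, 43 ribosome biogenesis genes, 15 RNA polymerase I genes and 77 mitochondrial ribosomal proteins tested was called by edgeR in either direction, and their medians were -0.03, 0.00, -0.09, -0.39 and -0.11. Of the 25 TOR and Myc regulators tested, 1 was called, Ddit4, which was lower with -2.29 (adjusted p = 0.0373, edgeR).

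Promoter sequence allowed the members to be set beside the YY1 site. RefSeq promoters of GRCm38.p6, 250 bases before to 50 after a start, were matched by symbol for 60 of the 81 members. The YY1 site was searched as AANATGGCG on both strands. It occurred in 5 of the 60 members (8.33%), against 2.76% of all genes with a promoter entry. These sites are shown because they are the only matches among the members. Each window is read on the gene's strand, with the match or its reverse complement in capitals.
Rps27 (chr3:90213704-90213732, minus strand, 74 bases before the start): agaccttccgAAGATGGCGaagcaacacg
Rpl13a (chr7:45128699-45128727, minus strand, 29 bases after the start): gcggctgccgAAGATGGCGgaggggcagg
Rpl34 (chr3:130730422-130730450, minus strand): gcttccgtacAACATGGCGgcgcgctcgc
Rpl35a (chr16:33056479-33056507, plus strand, site on the other strand): ttcctctttcCGCCATCTTggcgcctgtg
Rps28 (chr17:33824617-33824645, minus strand, site on the other strand): gagtagcggaCGCCATATTccttccgctc

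The members with such a match went both ways after Yy1 deletion, and they included the highest and the lowest fold change of the 76 members tested. Their median log2 fold change was 0.01 over 5 genes, against 0.14 over the 51 tested members with an entry and no match, a difference that was not tested. Rpl13a had 175, 127 and 223 CPM in controls, against 191, 188 and 191 CPM after deletion, 0.12 (95% interval -0.29 to 0.53). Rps28 was at 0.01 (-1.07 to 1.09). Rps27 and Rpl34 had few counts, with 1.75 to 5.62 against 8.61 to 11.0 CPM and 3.28 to 10.8 against 1.97 to 5.23 CPM. Their log2 fold changes of 1.52 (-0.32 to 3.35) and -1.04 (-3.11 to 1.03) have wide intervals. A match is a run of letters and not evidence of binding.

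The pyrimidine run of these messages could be read from the same windows. A run of at least 6 C or T letters that overlapped the stretch from 5 bases before to 10 bases after the start was found in 34 of the 60 members (56.7%), against 27.6% of all genes. Windows of 30 bases before and 10 bases after the start are shown for members named above, with the part of the run inside the window in capitals.
Rpl18 (chr7:45718041-45718080, plus strand): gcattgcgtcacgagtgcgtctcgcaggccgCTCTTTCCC
Rps6 (chr4:86857358-86857397, minus strand): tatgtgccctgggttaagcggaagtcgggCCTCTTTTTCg
Rpl7a (chr2:26910777-26910816, plus strand): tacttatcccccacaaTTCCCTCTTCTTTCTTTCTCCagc
Rplp2 (chr7:141447621-141447660, plus strand): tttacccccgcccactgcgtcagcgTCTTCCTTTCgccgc
Rps18 (chr17:33955656-33955695, minus strand): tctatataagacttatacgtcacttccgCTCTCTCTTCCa
Rpsa (chr9:120127736-120127775, plus strand): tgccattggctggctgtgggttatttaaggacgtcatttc

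Rpl18, Rps6 and Rpl7a, described above for the Yy1 comparison, carried the run, and Rpsa did not at this start. Members with the run had a median log2 fold change of 0.16 in the Yy1 comparison over 33 genes, and those without it 0.11 over 23. The difference between these medians was not tested.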

How the data were processed

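The deposited tables hold counts per gene; per the submitters' processing notes STAR, featureCounts and edgeR were used with mm10 and GRCm38, and versions, annotation, strand setting and the treatment of multiply placed reads are not given in the sources used here. The authors' time course and day 6 EGFP table and their day 14 EGFP table hold whole counts, of which 68.7% to 91.0% of values from 1 to 20 were even, so a count is not 1 independent molecule. The Yy1 table was deposited by the authors with estimated counts (3.55% to 4.75% of values not whole, but 64.2% to 71.6% of the members' values); they were rounded. Libraries were scaled by TMM in edgeR 4.0.16 (R 4.3.3) within each table. Comparisons with 1 library per state used log2 ratios of CPM with a pseudocount of 1 CPM, for genes with 20 CPM or more in either library, and a size rule of 1. The Yy1 groups were fitted with edgeR's quasi-likelihood test without a replicate block, with filterByExpr and Benjamini-Hochberg adjustment over all genes. Levels per kb and shared 50-base stretches used GENCODE M21 models (GRCm38). Genes sharing sequence with pseudogenes, and genes overlapping others, such as Rpl35 with Wdr38 (66.2% of its exon bases), are uncertain. On simulated Yy1 data of 12963 genes, the test recovered 18% of changes of 2-fold and 93% of changes of 4-fold. The simulation gave every gene the same dispersion and was not fitted to the members, so these shares do not carry over to them.

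Named members were a set of well-known members and paralogs, the 3 highest and 3 lowest ratios of each unreplicated comparison, the 5 lowest p of the Yy1 comparison and the 3 highest and lowest levels per length, with up to 3 genes of each other list; the results of some genes picked by this rule are not reported here. Ribosomal proteins outside the name pattern formed a list of their own. The members and lists were chosen with earlier results of these data known. Genes beyond the rule (such as Rpl10a) were named after their values were seen. Alternatives are given in the closing section. No amino acid sequences were used here. The splits by exon length, shared sequence and promoter letters, and the marker sums without Csf3r or Fn1, were added after the data were seen.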

Additional observations from a re-analysis of the deposited data

Results flagged for a closer look

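The reporter comparison pointed opposite ways on its 2 days. The members' median log2 ratio of EGFP-positive to EGFP-negative cells was -0.55 on day 6 and 0.42 on day 14. The difference was not tested, since each state had 1 library per day and the day 14 libraries form their own table.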

How the results depend on the processing

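The signs of all 6 medians against sham or between EGFP states, and of the Yy1 median, held under every alternative run, and values past the size rule moved most with the rule itself. With an absolute log2 ratio of 2, the members past it were 0 upward on days 1, 6 and 14, 12 upward and 0 downward on day 28, 0 downward between the EGFP states on day 6, and 0 either way on day 14. Scaling by total counts gave medians of 0.83 on day 1, 0.89 on day 6, 0.31 between the EGFP states on day 14 (0 upward) and 0.031 in the Yy1 comparison, where 43 members were then above 0 and the median of all genes moved from -0.02 to -0.12. With RLE size factors the day 14 median was 0.96, a scaling that moved the median of all genes by 0.17 on day 14 and 0.12 on day 28. A minimum of 5 CPM gave 2 members downward on days 14 and 28, a minimum of 50 CPM gave 0 downward between the EGFP states on day 14, and a pseudocount of 5 CPM gave 1 upward there. In the Yy1 comparison 1 member was called with no filter on low counts (adjusted p = 0.0258, edgeR) and 1 with DESeq2 (Rpl18, log2 fold change 0.67, adjusted p = 0.0392). With the replicate block 0 members were called (lowest adjusted p 0.106, edgeR) and 413 of all genes against 322; the correlations of same-numbered libraries, -0.02, -0.10 and -9e-04, do not show that the numbers pair them. Leaving out 1 library at a time called 0 members, with 3 to 11 at an unadjusted p under 0.05, 48 to 58 above 0 and a lowest adjusted p from 0.112 to 0.31 (edgeR). Over all genes these fits called 97 to 317, and 575 with no filter and 753 with DESeq2, against 322. The causes were not tested. Unreplicated comparisons have no error between mice. In the Yy1 comparison the reach of the test for the members was not simulated. Their median standard error was 0.20 log2 units, and a few members with low counts had wide intervals.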
